A study of Homo sapiens with 36 samples.

Results

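The genes described here encode 30 enzymes and carriers of the tricarboxylic acid (TCA) cycle, of pyruvate entry and of glutamine, glutamate, aspartate and acetate use. Some of them are cytosolic. They were chosen by gene symbol, as enzymes of the cycle other than succinate dehydrogenase together with enzymes and carriers of pyruvate, glutamine and aspartate, and all 30 were found among the 58735 genes of the count table, 19951 of them protein-coding. Poly(A) RNA came from HN4, HN6 and Cal27, which are 3 human lines of squamous cell carcinoma of the head and neck, in 36 libraries that form 12 groups of 3. In the first experiment each line received recombinant human IL-8 at 100 ng/ml for 24 h or no treatment. In the second, each line received an ACLY plasmid or vector plasmid by transfection. ACLY encodes ATP citrate lyase, which splits exported citrate into acetyl-CoA and oxaloacetate. All cells grew in medium with exosome-depleted serum. Whether the 3 libraries of a group came from separate cultures is not given in the labels. The p-values therefore rest on a library-to-library spread that may be technical.

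Pyruvate enters mitochondria through the MPC1-MPC2 carrier and is either oxidised to acetyl-CoA by the pyruvate dehydrogenase complex or carboxylated to oxaloacetate by pyruvate carboxylase. Citrate synthase joins acetyl-CoA to oxaloacetate, and the cycle then oxidises isocitrate and 2-oxoglutarate, while NADP-linked isocitrate dehydrogenases outside the NAD-linked step supply NADPH and can run in reverse. Glutamate dehydrogenase and the aspartate aminotransferases connect the cycle to amino acids, and carcinoma cells often feed it with glutamine. Citrate that leaves the mitochondrion is the substrate of ACLY.

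Depth was even, at 16570601 to 20232735 counts per library. The transfected gene did not follow the labels in 1 line. ACLY averaged 2208 ± 61.8 CPM (read counts scaled to a common library depth) in HN6 with the ACLY plasmid and 270 ± 4.14 CPM in HN6 with vector, and 1891 ± 32.4 CPM in Cal27 with the ACLY plasmid and 229 ± 13.2 CPM in Cal27 with vector (SD, n = 3 each). In HN4 it averaged 345 ± 28.5 CPM in the libraries labelled ACLY and 1507 ± 9.08 CPM in those labelled vector. The gene thus goes against those HN4 labels, and the groups are called HN4 labelled ACLY and HN4 labelled vector throughout. ACLY was also 3.61-fold higher in IL-8 treated than in untreated HN4 and 4.98-fold higher in IL-8 treated than in untreated Cal27, and it was lower in HN6, averaging 228 ± 3.07 CPM with IL-8 and 283 ± 3.55 CPM untreated (SD, n = 3 each; log2 -0.31).

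Treated Cal27 libraries also carried transcripts that were otherwise read only in HN4. Of the genes read at 10 CPM or more in every untreated HN4 library and at no more than 0.2 CPM in untreated HN6 and Cal27, 10 passed, and none is among the 30. Their median ratio to the untreated HN4 level was 0.292 to 0.356 in Cal27 IL-8 and 0.519 to 0.529 in Cal27 ACLY, against 0 in Cal27 untreated and Cal27 vector. The 15 genes read in this way only in Cal27 stood at 0.593 to 0.662 of their untreated Cal27 level in Cal27 IL-8 and 0.244 to 0.274 in Cal27 ACLY. In these libraries a change in Cal27 cells cannot be told apart from the presence of HN4 RNA. Mitochondrially encoded mRNAs took 0.850% of counts in replicate 3 of Cal27 IL-8 and 1.65% in replicate 3 of HN4 labelled ACLY, against 2.81% to 5.5% in every other library. Both libraries also stood apart from their own group over all read genes. Pairs of libraries within a group were compared by chi-square per degree of freedom. It was 104 and 107 for pairs with that Cal27 library and 36.6 and 41.1 for pairs with that HN4 library. Every other pair gave 1.99 to 8.44. Leukocyte markers summed to at most 1.43 CPM in any library. Among 7 squamous epithelial markers KRT5, a basal keratin, was read at 121 CPM or more in every library, while its partner KRT14 reached at most 0.176 CPM in any HN4 library and 0.933 CPM in any HN6 library, against 376 CPM or more in every Cal27 library.

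The lines differed in which of the 30 genes stood highest. Per kilobase of exon the malate dehydrogenase MDH2, which closes the cycle, averaged 116 CPM per kb in untreated HN4 and was the highest of the 30 there, and DLST, the succinyltransferase of the 2-oxoglutarate dehydrogenase complex, was the highest in untreated HN6 at 80.8 CPM per kb. FH, the fumarase, led in untreated Cal27 at 73.6 CPM per kb. The lowest in each line was ACSS1, the mitochondrial acetyl-CoA synthetase that activates acetate, at 1.43 CPM per kb in untreated HN6 and 1.08 in untreated Cal27, against 0.0397 in untreated HN4. Over the 12 group means 11 members varied less than 2-fold, 14 varied 2- to 4-fold and 5 varied at least 4-fold.

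**Figure D1:**
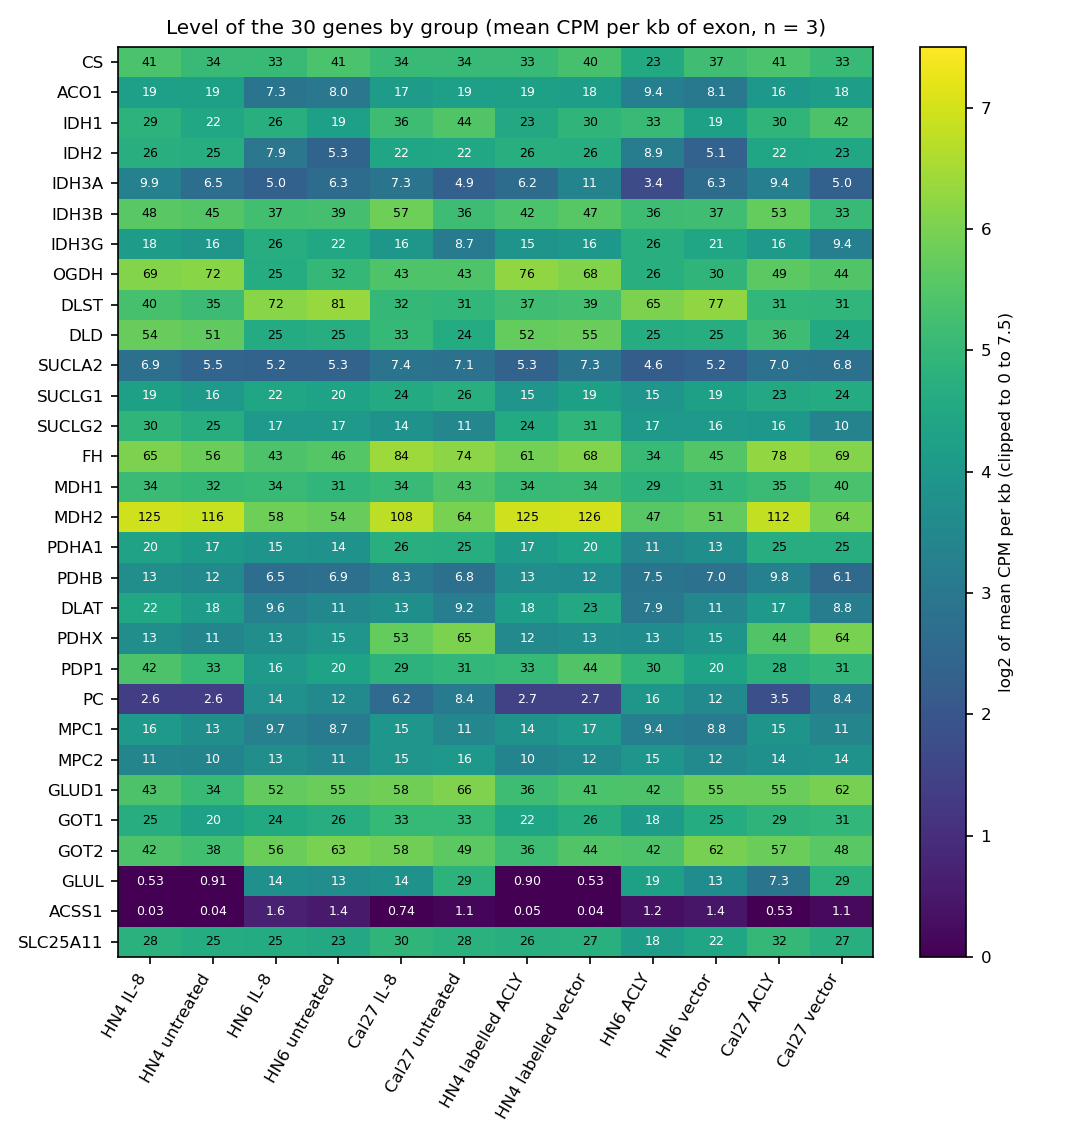
Mean level of each of the 30 genes (rows) in each of the 12 groups (columns, each treated group left of its control), in CPM per kb of exon, with colour on a log2 scale and the value printed in each cell (n = 3 libraries). In untreated HN4 the lowest rows are ACSS1 at 0.0397 and GLUL at 0.912 CPM per kb, and MDH2 is brightest in HN4 at 116 CPM per kb in untreated cells.

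GLUL and ACSS1 were far lower in HN4 than in the other lines. GLUL, the glutamine synthetase that makes glutamine from glutamate and ammonia, had 119, 109 and 119 CPM in untreated HN6 and 259, 268 and 256 CPM in untreated Cal27, against 8.60, 7.81 and 8.31 CPM in untreated HN4. The 3 lines did not overlap, and the log2 difference was 3.76 ± 0.138 (SE) for HN6 over HN4 (adjusted p = 1.1e-13) and 4.99 ± 0.144 for Cal27 over HN4 (adjusted p = 4.5e-15). ACSS1 had 15.4, 9.12 and 12.9 CPM in untreated HN6 and 10.0, 9.78 and 8.39 CPM in untreated Cal27, against 0.352, 0.0558 and 0.626 CPM in untreated HN4. At this depth 3 counts correspond to 0.148 to 0.181 CPM, so the HN4 values of ACSS1 rest on a few reads. Its fitted log2 differences over HN4 were 5.11 ± 0.333 in HN6 and 4.75 ± 0.339 in Cal27.

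PDHX, which tethers the E3 subunit to the pyruvate dehydrogenase complex, distinguished Cal27. It had 242, 258 and 235 CPM in untreated Cal27, against 40.5, 42.0 and 40.1 CPM in untreated HN4 and 54.7, 56.9 and 56.9 CPM in untreated HN6. No Cal27 library came near the other lines, and the log2 difference over HN4 was 2.59 ± 0.069 (adjusted p = 1.7e-15). IDH2, the mitochondrial NADP-linked isocitrate dehydrogenase, was low in HN6, with 14.7, 12.3 and 17.8 CPM in untreated HN6 against 72.1, 70.8 and 70.8 CPM in untreated HN4, a log2 difference of -2.30 ± 0.127 (adjusted p = 2.4e-11). Pyruvate carboxylase, PC, ran the other way, with 77.5, 64.7 and 70.2 CPM in untreated HN6 against 13.2 to 16.6 CPM in untreated HN4, and a log2 difference of 2.16 ± 0.177 (adjusted p = 5.5e-09). IDH1, the cytosolic NADP-linked enzyme, was highest in untreated Cal27, and its level per length relative to IDH2 averaged 3.65 ± 0.742 in untreated HN6 and 1.97 ± 0.219 in untreated Cal27, against 0.869 ± 0.0339 in untreated HN4 (SD, n = 3).

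**Figure D2:**
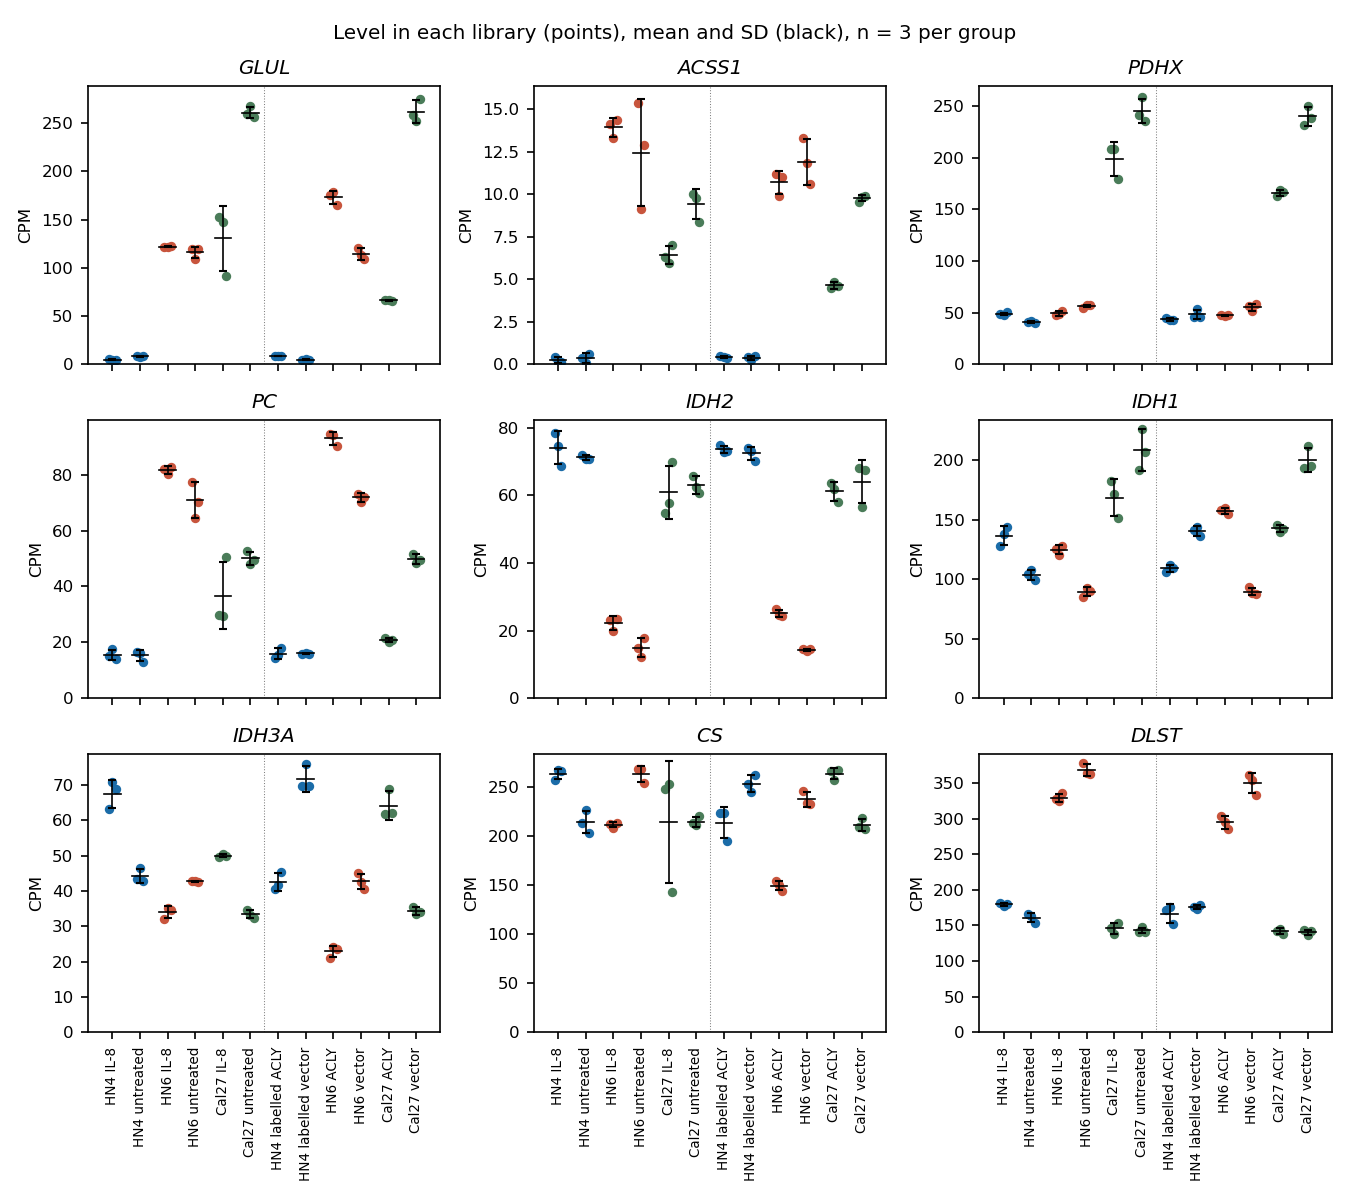
CPM of 9 members in every library (points), with group means and SD (black), n = 3; HN4 is blue, HN6 red and Cal27 green, the IL-8 experiment stands left of the dotted line, and each treated group stands left of its control. GLUL in Cal27 with the ACLY plasmid sits at 65.2 to 66.7 CPM, below every Cal27 vector library, and CS in HN6 with the ACLY plasmid lies below every HN6 vector library.

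Untreated HN6 differed from untreated HN4 in 23 members by edgeR's quasi-likelihood test (Benjamini-Hochberg adjusted over all genes tested, threshold 0.05), 10 higher and 13 lower, where 32.4% of all tested genes were called higher and 34.7% lower. Untreated Cal27 differed from untreated HN4 in 23 members, 14 higher and 9 lower, against 32.2% and 31.4% of all genes, and from untreated HN6 in 24, 17 higher and 7 lower, against 35.3% and 33.1%. In the vector libraries Cal27 differed from HN6 in 27 members, 18 higher and 9 lower, against 36.7% and 36.6%. The median log2 difference of the 30 was -0.13 for HN6 over HN4, 0.08 for Cal27 over HN4 and 0.35 for Cal27 over HN6. Differences passed the test in all 3 line comparisons for 15 members, where 31.7% of all tested genes did so. CS, the citrate synthase that opens the cycle, and IDH3B, the beta subunit of the NAD-linked isocitrate dehydrogenase, passed in none, as did 12.1% of all tested genes.

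Subunits of 1 enzyme did not share 1 order of the lines. For the 2-oxoglutarate dehydrogenase complex, OGDH (E1) averaged 165 CPM in untreated HN6 and 374 in untreated HN4, while DLST (E2) averaged 368 CPM in untreated HN6 and 161 in untreated HN4. Both differences passed the test, in opposite directions, with log2 values of -1.23 and 1.14. DLD, the E3 subunit shared with pyruvate dehydrogenase, was lower in both other lines than in HN4 (log2 -1.05 in each comparison). Among the NAD-linked isocitrate dehydrogenase subunits, the catalytic IDH3A stood at 0.282 of the regulatory IDH3G per length in untreated HN6 and at 0.564 in untreated Cal27, against 0.416 in untreated HN4. Of the other pathway genes fixed as a list, 38 of 39 were tested: 24 differed between HN6 and HN4 (8 higher and 16 lower), and 22 between Cal27 and HN4 (12 higher and 10 lower), and 32 between Cal27 and HN6 (23 higher and 9 lower). PDK4, a kinase that inactivates pyruvate dehydrogenase, had 1.08, 0.918 and 0.960 CPM in untreated HN6, from 19, 16 and 16 counts. It was at 0 in every HN4 and every Cal27 library.

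The promoter of IDH3A is shown because IDH3A, with IDH1, passed the test in all 6 treatment comparisons described below, and those of DLD and PDHB because they hold the motif matches. RefSeq (GRCh38.p14) lists 250 bases before its start at chr15:78149112-78149361 on the plus strand, inside the span the count table gives the gene, chr15:78131498-78171949 (hg38).
IDH3A: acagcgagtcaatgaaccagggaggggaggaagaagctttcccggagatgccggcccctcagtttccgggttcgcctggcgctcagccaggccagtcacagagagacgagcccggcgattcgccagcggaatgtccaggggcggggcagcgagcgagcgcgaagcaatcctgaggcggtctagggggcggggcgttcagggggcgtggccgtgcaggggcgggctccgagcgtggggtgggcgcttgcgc
RefSeq promoters of 28 of the 30 members were searched, 38 entries in all. Each entry ran from 250 bases before the start to 50 after it. Exact matches on both strands were sought for the NRF1 core GCATGCGC, the ERR element TCAAGGTCA, the E-box CACGTG and the C/EBP-ATF element TGATGCAAT, none of which contains another. The ERR element and the C/EBP-ATF element matched no member entry, and 0.353% and 0.236% of all 35116 promoters. The other 2 motifs matched 1 entry each, beside 3.05% of all promoters for the NRF1 core and 7.26% for the E-box. In DLD the NRF1 core begins 21 bases before the start, at chr7:107891123-107891182 on the plus strand, and in PDHB, the beta subunit of pyruvate dehydrogenase E1, the E-box begins 236 bases before it, at chr3:58434023-58434082 on the minus strand. Capitals mark the match in each.
DLD: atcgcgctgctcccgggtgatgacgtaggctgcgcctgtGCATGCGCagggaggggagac
PDHB: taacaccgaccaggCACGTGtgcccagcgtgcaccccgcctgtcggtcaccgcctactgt

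With the ACLY plasmid, HN6 had lower IDH3A, CS, GOT1, GOT2, GLUD1 and DLAT and higher IDH1, IDH2, GLUL and PDP1. Of the 30 members 22 changed, 8 higher and 14 lower, where 26.8% of all genes were called higher and 24.9% lower, and the median of the members was -0.12 on the log2 scale against 0.04 for all genes. Leaving out any 1 library left 21 or 22 members. The HN6 libraries gave 23 in a fit of their own. IDH3A fell most, with 21.1, 24.1 and 23.6 CPM with the ACLY plasmid against 45.0, 42.7 and 40.6 CPM with vector (log2 change -0.88 ± 0.075, adjusted p = 3.3e-12). CS had 154, 150 and 145 CPM with the ACLY plasmid against 246, 234 and 233 CPM with vector (log2 -0.66 ± 0.053, adjusted p = 9.5e-13). Neither gene overlapped between the 2 groups.

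Both NADP-linked enzymes rose in the same libraries. IDH1 had 158, 160 and 155 CPM with the ACLY plasmid against 93.4, 88.3 and 87.3 CPM with vector, and IDH2 had 26.3, 24.6 and 24.4 CPM with the ACLY plasmid against 14.6, 14.0 and 14.5 CPM with vector. All 3 libraries with the ACLY plasmid lay above all 3 with vector for both genes. The log2 change was 0.82 for each, with SE 0.052 for IDH1 and 0.081 for IDH2. The ratio of IDH1 to IDH2 per length was 3.74 ± 0.148 with the ACLY plasmid and 3.72 ± 0.109 with vector (SD, n = 3 each). IDH3G rose by 0.31, the log2 difference of IDH3B was 0.0034 ± 0.058 and did not pass the test, and IDH3A per length was 0.127 of IDH3G with the ACLY plasmid and 0.295 with vector.

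Both aspartate aminotransferases and glutamate dehydrogenase fell. GOT2, the mitochondrial aspartate aminotransferase, had 164, 156 and 157 CPM with the ACLY plasmid against 219 to 249 CPM with vector (log2 -0.53), its cytosolic partner GOT1 changed by -0.47, and GLUD1, glutamate dehydrogenase, changed by -0.36. GLUL, which runs towards glutamine, rose, with 175, 179 and 166 CPM with the ACLY plasmid against 121, 113 and 109 CPM with vector (log2 0.61 ± 0.055, adjusted p = 1.1e-11). SUCLG1, the shared alpha subunit of succinyl-CoA ligase, changed by -0.32, and SLC25A11, the 2-oxoglutarate and malate carrier, by -0.24.

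At pyruvate entry the E2 subunit DLAT of pyruvate dehydrogenase fell in HN6 (log2 -0.48 ± 0.062), as did the E1 alpha subunit PDHA1 (-0.26), while the phosphatase PDP1, which reactivates the complex, had 160, 166 and 174 CPM with the ACLY plasmid against 117, 111 and 112 CPM with vector (log2 0.57 ± 0.048, adjusted p = 3.4e-12). PC rose by 0.39 and the carrier subunit MPC2 by 0.36. FH fell by 0.38 and MDH2 by 0.11, and the MDH2 call was lost in 10 of 14 alternatives. Of the other pathway genes 12 were higher and 12 lower. PDK4 had 3.61, 3.03 and 3.56 CPM with the ACLY plasmid against 2.24, 1.37 and 1.20 CPM with vector (log2 1.09). PDK2, another kinase of the complex, rose by 1.07, ASNS, asparagine synthetase, rose by 1.74, and SLC25A22, a mitochondrial glutamate carrier, fell by 1.08. Fibroblast markers summed to 52.5 to 60.5 CPM in HN6 ACLY and 18.5 to 22.1 CPM in HN6 vector, with 3 of 6 genes under the level of 3 counts in both groups and DCN at 0.0574 CPM or less in any library. Endothelial markers summed to 19.4 to 21.9 CPM in HN6 ACLY and 10.1 to 12.4 CPM in HN6 vector, and squamous markers to 2181 to 2210 CPM in HN6 ACLY and 1884 to 1928 CPM in HN6 vector. The part of these markers in the changes was not tested.

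**Figure D3:**
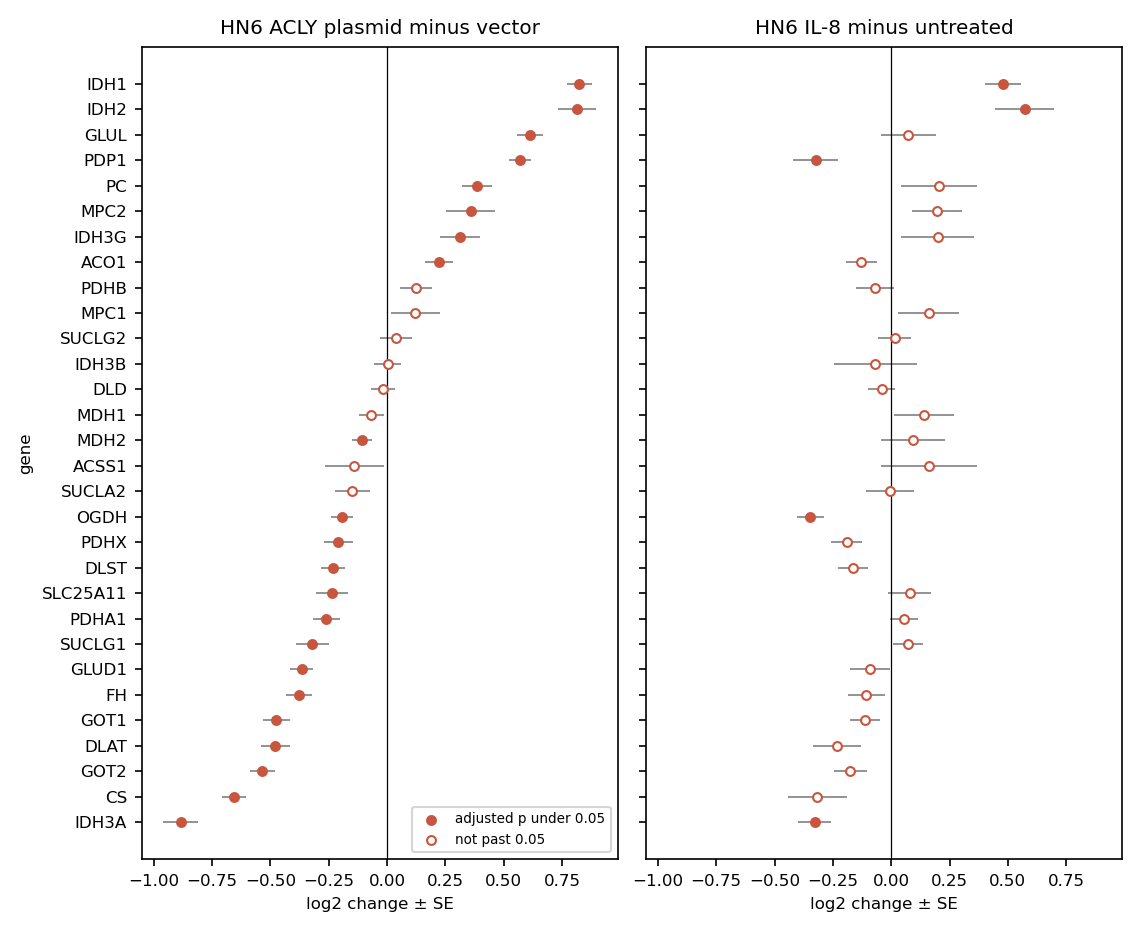
edgeR log2 change ± SE for each of the 30 genes in HN6, ACLY plasmid against vector (left) and IL-8 against untreated (right), on the same gene order and axis; filled points passed an adjusted p of 0.05. IDH1 and IDH2 stand at the top left at 0.82 each and IDH3A at the bottom at -0.88.

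HN4 libraries labelled ACLY and those labelled vector differed in 15 members, 2 higher and 13 lower, where 18.9% of all genes were called higher and 19.1% lower. The median of the members was -0.14 on the log2 scale. IDH3A had 40.7, 41.6 and 45.4 CPM in HN4 labelled ACLY against 69.7, 76.0 and 69.6 CPM in HN4 labelled vector (log2 -0.73 ± 0.069, adjusted p = 1.9e-10). GLUL had 7.93, 8.25 and 8.09 CPM in HN4 labelled ACLY against 4.78, 5.28 and 4.32 CPM in HN4 labelled vector (log2 0.78 ± 0.102, adjusted p = 1.6e-07), and neither gene overlapped. In HN4 labelled ACLY, SUCLA2, the ATP-forming succinyl-CoA ligase subunit, was lower by 0.46, PDP1 by 0.41 and IDH1 by 0.34, while OGDH was higher by 0.18. ACLY itself was lower in HN4 labelled ACLY (log2 -2.11), so these directions follow the labels and not the level of ACLY. With replicate 3 of HN4 labelled ACLY left out, the library of low mitochondrial share, 16 members were called. Of the other pathway genes 8 were higher and 9 lower, with ASNS 4.14-fold and PCK2, mitochondrial phosphoenolpyruvate carboxykinase, 2.27-fold higher.

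Cal27 with the ACLY plasmid differed from Cal27 vector in 23 members, 14 higher and 9 lower, where 34.2% of all genes were called higher and 29.0% lower. GLUL changed most of the 30, with 66.1, 66.7 and 65.2 CPM with the ACLY plasmid against 258, 253 and 275 CPM with vector (log2 -1.999 ± 0.056, adjusted p = 1.8e-25). PC had 21.5, 20.3 and 20.9 CPM with the ACLY plasmid against 51.8, 48.4 and 49.4 CPM with vector (log2 -1.27), and ACSS1 had 4.46, 4.84 and 4.62 CPM with the ACLY plasmid against 9.56, 9.85 and 9.88 CPM with vector (log2 -1.08). The untreated HN4 means of these 3 genes were 8.24, 15.3 and 0.345 CPM, below every Cal27 library. DLAT had 82.8, 79.2 and 81.4 CPM with the ACLY plasmid against 39.5, 43.2 and 44.6 CPM with vector (log2 0.92), and MDH2 had 406, 413 and 399 CPM with the ACLY plasmid against 226, 235 and 235 CPM with vector (log2 0.80). The untreated HN4 means were 85.3 CPM for DLAT and 424 CPM for MDH2. In these bulk libraries fewer cells of a line and less RNA per cell cannot be told apart.

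Set against untreated Cal27, the control of the other experiment, 17 of the 23 called members moved towards the untreated HN4 level, where 86.3% of all called genes did so. The 6 that moved away were CS, FH, GOT2, SLC25A11, ACO1 (cytosolic aconitase) and PDP1. The direction of CS turns on the control, with 215.01 CPM in untreated Cal27, 211.82 in Cal27 vector and 214.58 in untreated HN4. CS averaged 263.72 CPM in Cal27 ACLY and 263.71 in HN4 with IL-8. In 13 the Cal27 ACLY mean lay between those of untreated Cal27 and untreated HN4, as it did for 54.1% of all called genes. Set against Cal27 vector, 18 of the 23 moved towards the untreated HN4 level, where 87.6% of all called genes did so. None of these shares is read as a property of these members. IDH3A stood above both, at 64.2 ± 4.04 CPM with the ACLY plasmid, 34.3 ± 1.04 CPM with vector and 44.3 ± 2.01 CPM in untreated HN4 (SD, n = 3 each). It averaged 67.6 CPM in HN4 with IL-8 and 71.8 CPM in HN4 labelled vector, and neither group was used as the HN4 level here. IDH3G, MDH2, PDHB and SUCLG2 had higher levels in Cal27 ACLY than in Cal27 vector by log2 0.80, 0.80, 0.69 and 0.62. OGDH, 0.14 higher in the test, was -0.0055 with upper-quartile scaling. The split of calls moved with scaling, to 12 higher and 12 lower with library-size scaling and 10 higher and 14 lower with upper-quartile scaling. Squamous markers summed to 3711 to 3860 CPM with the ACLY plasmid and 6249 to 6978 CPM with vector. Fibroblast markers summed to 7.98 to 9.56 CPM with the ACLY plasmid and 30.01 to 31.98 CPM with vector, and endothelial markers to 11.9 to 13.3 CPM with the ACLY plasmid and 26.7 to 27.9 CPM with vector. The part of these markers was not tested. Other pathway genes gave 11 higher and 13 lower, led by OGDHL (-1.97), PDK3 (-1.52) and PDK1 (-1.28). The OGDHL value rests on few reads, 13, 5 and 5 counts with the ACLY plasmid against 26, 29 and 39 with vector.

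**Figure D4:**
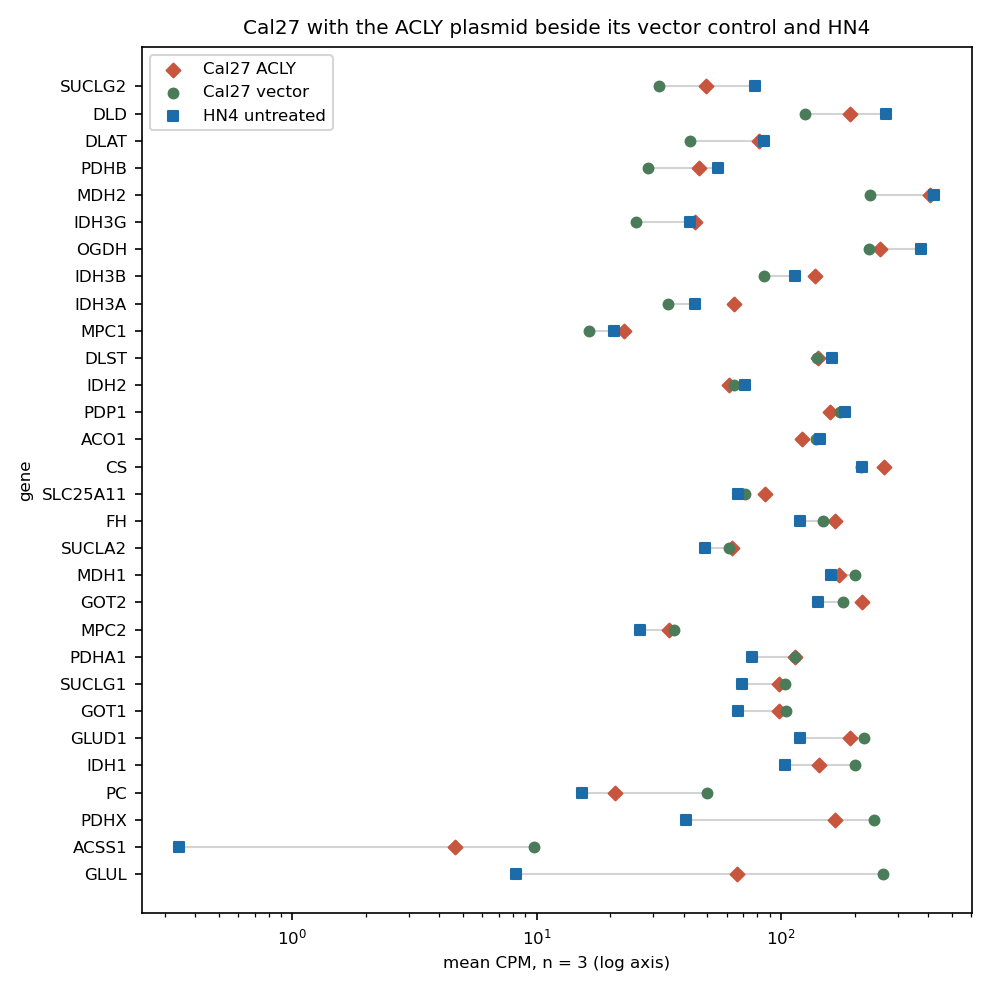
Mean CPM of each of the 30 genes (log axis, n = 3) in Cal27 with the ACLY plasmid (diamonds), Cal27 vector (circles) and untreated HN4 (squares); grey bars join the Cal27 vector and HN4 means. For 13 of the 23 called genes the diamond lies between the other marks, and IDH3A lies to the right of both, at 64.2 CPM.

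HN4 with IL-8 had higher IDH3A, IDH1 and GOT1 and lower GLUL than untreated HN4. Of the 30 members 10 changed, 9 higher and 1 lower, where 6.89% of all genes were called higher and 7.09% lower, and the median of the members was 0.14 on the log2 scale against -0.01 for all genes. IDH3A had 63.2, 70.8 and 68.9 CPM with IL-8 against 43.5, 46.6 and 42.9 CPM untreated (log2 0.58 ± 0.069, adjusted p = 3.1e-05). GLUL had 5.24, 4.55 and 4.63 CPM with IL-8 against 8.60, 7.81 and 8.31 CPM untreated (log2 -0.81 ± 0.154, adjusted p = 0.0021). IDH1 rose by 0.37 and GOT1 by 0.34, and these 4 calls held in every alternative tried. The rest (PDP1, GLUD1, PDHX, SUCLG1, SUCLG2 and PDHA1, at 0.21 to 0.35) were lost in 7 to 10 of 14 alternatives. Without any 1 of the 6 HN4 libraries 4 to 6 members were called. The spread was shared with replicate 3 of Cal27 IL-8, and without that library 17 members were called, against 18 in the HN4 libraries alone. With library-size or upper-quartile scaling 3 were higher and 1 lower. Of the other pathway genes 3 were higher and 4 lower.

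HN6 with IL-8 differed from untreated HN6 in 5 members, 2 higher and 3 lower, where 7.61% of all genes were called higher and 7.81% lower. IDH2 had 23.3, 19.9 and 23.5 CPM with IL-8 against 14.7, 12.3 and 17.8 CPM untreated (log2 0.57 ± 0.127, adjusted p = 0.0052), and IDH1 had 126, 121 and 128 CPM with IL-8 against 85.3, 92.6 and 90.6 CPM untreated (log2 0.48 ± 0.077, adjusted p = 0.00042). Neither overlapped. OGDH fell by 0.35, IDH3A by 0.33 and PDP1 by 0.32. The IDH1, IDH2 and OGDH calls held in every alternative, IDH3A was lost without the low-count filter and PDP1 was lost in 8 of 14. Without replicate 3 of Cal27 IL-8 the count was 13, and in the HN6 libraries alone 14. Of the other pathway genes 8 were higher and 2 lower: ASNS had 4.14, 5.81 and 4.82 CPM with IL-8 against 0.913, 0.689 and 0.480 CPM untreated, a log2 difference of 2.81, and PCK2 (2.79-fold), PSAT1 (2.73-fold) and GPT2 (2.49-fold) were higher as well. ASNS fell in HN4 with IL-8 (log2 -1.13). Fibroblast markers summed to 29.7 to 31.8 CPM in HN6 with IL-8 and 17.1 to 18.2 CPM untreated, with 3 of 4 tested called higher, and endothelial markers to 11.9 to 13.1 CPM with IL-8 and 9.18 to 11.8 CPM untreated, with 1 of 3 called higher. Their part was not tested.

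Cal27 with IL-8 differed from untreated Cal27 in 16 members, 10 higher and 6 lower, where 22.7% of all genes were called higher and 16.7% lower. GLUL had 153, 147 and 91.4 CPM with IL-8 against 259, 268 and 256 CPM untreated (log2 -1.03 ± 0.118, adjusted p = 3.2e-06). IDH3G had 34.0, 35.3 and 57.3 CPM with IL-8 against 25.2, 24.2 and 21.6 CPM untreated (log2 0.82), MDH2 332, 329 and 524 CPM with IL-8 against 247, 226 and 226 CPM untreated (0.75), and IDH3B 116, 111 and 214 CPM with IL-8 against 99.0, 85.7 and 90.2 CPM untreated (0.67). Replicate 3 was the highest of its group in all 3, and without it the log2 changes were 0.51, 0.46 and 0.27. PC was lower by 0.46 and by 0.80 without replicate 3, MDH1, the cytosolic malate dehydrogenase, by 0.38 and 0.17. Set against Cal27 vector, 15 of the 16 called members moved towards the untreated HN4 level, where 88.7% of all called genes did so. In the Cal27 libraries alone 4 members were called, GLUL, IDH3A, DLD and ACSS1. With upper-quartile scaling 8 were higher and 9 lower, and with DESeq2 10 and 9. Squamous markers summed to 4835 to 6027 CPM with IL-8 and 6232 to 6991 CPM untreated, fibroblast markers to 15.3 to 22.3 CPM with IL-8 and 26.6 to 29.5 CPM untreated, and endothelial markers to 15.4 to 18.9 CPM with IL-8 and 27.0 to 27.6 CPM untreated. Their part was not tested. Of the other pathway genes 7 were higher and 6 lower.

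**Figure D5:**
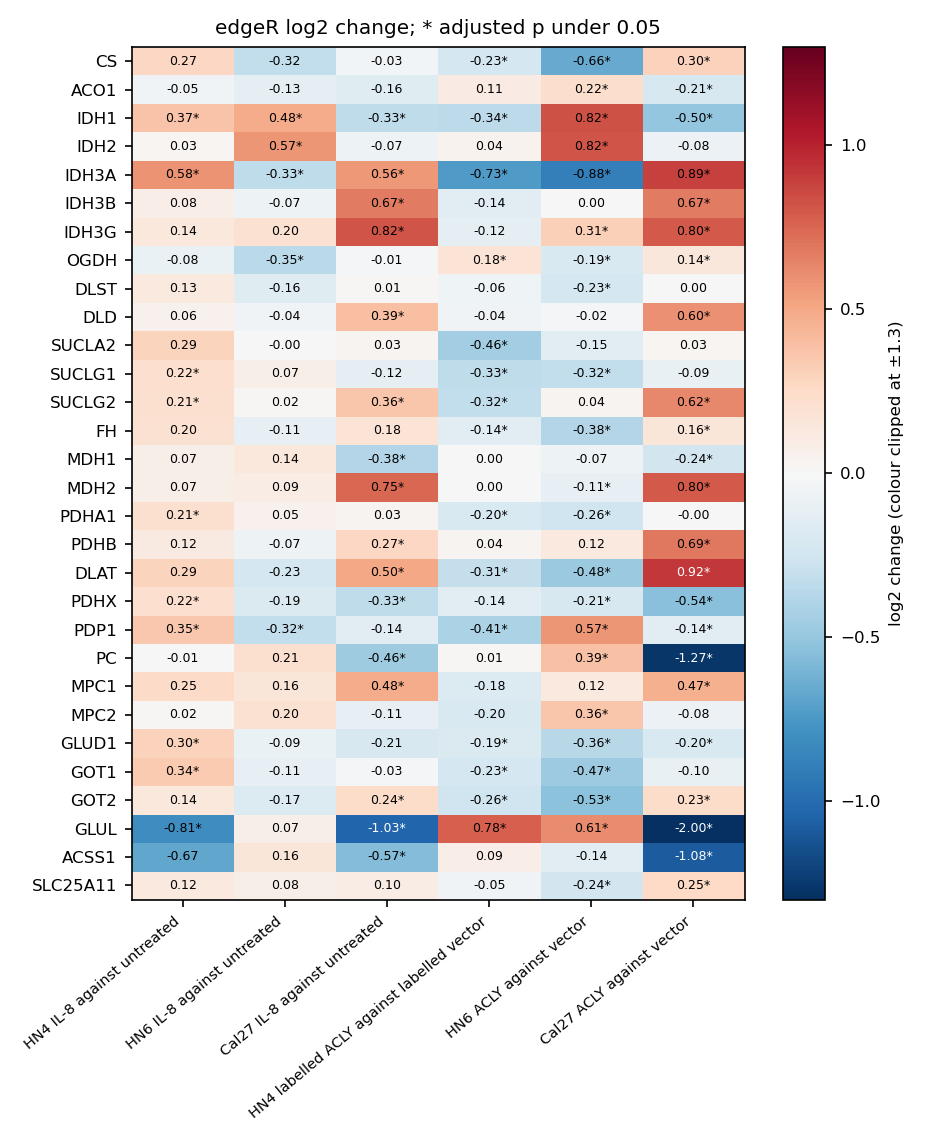
edgeR log2 change of each of the 30 genes (rows) in the 6 treatment comparisons (columns), with values printed and an asterisk where the adjusted p was under 0.05. IDH3A and IDH1 carry an asterisk in every column, with IDH3A at 0.58 in HN4 with IL-8 and -0.33 in HN6 with IL-8.

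Among lines the response to IL-8 differed for 19 of the 30 members, where 40.2% of all genes were called, and the response to the plasmids for all 30, where 70.9% were called. Neither test separates the HN4 labels or the HN4-read transcripts in treated Cal27 from a line effect. Between HN6 and HN4 the IL-8 response differed for 12 members, 2 higher and 10 lower in HN6, where 21.7% of all genes were called. IDH3A had the largest, at -0.91 ± 0.099 (adjusted p = 6.1e-06), rising in HN4 and falling in HN6 by the labels as given. IDH3A averaged 67.6 CPM in HN4 with IL-8 and 71.8 CPM in HN4 labelled vector. It averaged 44.3 CPM in untreated HN4 and was 40.7 to 45.4 CPM in HN4 labelled ACLY. Whether the HN4 labels of the IL-8 experiment hold was not tested. GLUL differed by 0.88, PDP1 by -0.67 and GOT1 by -0.45. With library-size scaling the count was 5, and without replicate 2 or 3 of HN4 IL-8 or replicate 3 of HN4 untreated it was 6.

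The malate dehydrogenase pair also separated the lines, with MDH1 per length at 0.569 ± 0.0381 of MDH2 in untreated HN6 and 0.676 ± 0.0576 in untreated Cal27, against 0.275 ± 0.00451 in untreated HN4 (SD, n = 3). SUCLA2 per length stood at 0.318 ± 0.0458 of SUCLG2, the GTP-forming subunit, in untreated HN6 and 0.642 ± 0.0517 in untreated Cal27, against 0.216 ± 0.00346 in untreated HN4. Over the 6 treatment comparisons IDH1 and IDH3A passed the test in all 6, as did 2.32% of the genes tested in both experiments. The direction of each differed among the comparisons. The IDH3A call in HN6 with IL-8 and the IDH1 call in Cal27 with IL-8 were each lost in 1 of 14 alternatives. GLUL and PDP1 passed in 5, as did 5.66% of genes, and 6 members (DLAT, GLUD1, GOT2, OGDH, PDHX and SUCLG2) in 4, as did 13.2%. Counts of some members are uncertain where a gene on the other strand is read at 10% or more of their level, since the strand setting of counting is not given in the sources used here: DLD with LAMB1, GLUD1 with SHLD2, PDHX with APIP, SLC25A11 with RNF167, IDH3G with SSR4, IDH3A with CIB2, PC with LRFN4 and MPC2 with DCAF6. Averaged over all libraries, LAMB1 was read at 320 CPM against 189 for DLD, and RNF167 at 103 against 69.1 for SLC25A11. SSR4 was read at 86.6 CPM against 47.4 for IDH3G, LRFN4 at 57.35 against 44.8 for PC, and DCAF6 at 53.7 against 32.7 for MPC2. SHLD2, APIP and CIB2 were read below their members. MDH1 varied least over the 12 groups, 1.49-fold, with SUCLA2 at 1.60-fold and MPC2, the carrier partner of MPC1, at 1.54-fold.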

How the data were processed

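The submitters' processing notes name CASAVA, HISAT2 2.0.5, featureCounts 1.5.0-p3, DESeq2 and the build hg38; their settings, strand included, are not given in the sources used here. The deposited values are whole counts per gene, not normalized, in 36 libraries. edgeR 4.0.16 (R 4.3.3, limma 3.58.1) was fitted to the counts of each experiment, 18 libraries and 12 residual degrees of freedom, with TMM factors, a filter on low counts (minimum count 10, minimum total 15) and the robust quasi-likelihood test; p-values were adjusted by Benjamini-Hochberg over 18398 genes in the IL-8 and 18556 in the plasmid experiment. All 30 members passed the filter. Levels are CPM with TMM factors over all libraries, and per kb of the exon length given for each gene when genes are compared. That length was not checked against the transcripts read, so ranks and ratios between genes depend on it. The fit was tested on simulated data for HN6 with IL-8 against untreated. Of genes raised 1.5-fold 34% were called, and of those lowered to 0.667 of their level 20%. Of genes raised 2-fold 69.4% were called, and of those lowered to 0.5 of their level 56%. Of unchanged genes 0.0279% were called. Every library was also left out in turn, and DESeq2 1.42.0, other scalings, no filter, a replicate block, all libraries in 1 fit and each line alone were tried. Tables were made with Python 3.11.15 and pandas 2.3.3. Named genes are the members, with values in every library for at most 8 per comparison plus those called most often or of largest range, at most 4 other pathway genes per comparison, and ACLY. The members and lists were chosen with earlier results of these data known. Proteins were not used here. A further item is not reported here.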

Additional observations from a re-analysis of the deposited data

Results flagged for a closer look

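Responses differed between lines in the test of the difference itself for 19 members with IL-8, where 40.2% of all genes were called, and for 30 with the plasmids, where 70.9% were. The HN4 labels and the HN4-read transcripts in treated Cal27 cannot be told apart from a line effect in these tests. Whether the HN4 labels of the IL-8 experiment hold was not tested. The IL-8 response in HN6 minus that in HN4, on the log2 scale, was -0.59 for CS, -0.52 for DLAT, -0.29 for DLST, -0.39 for GLUD1, 0.88 for GLUL, -0.45 for GOT1, -0.32 for GOT2, 0.54 for IDH2, -0.91 for IDH3A, -0.26 for OGDH, -0.41 for PDHX and -0.67 for PDP1. The adjusted p was 0.032 or less in each (edgeR), and GLUL, GOT1, IDH3A and PDP1 kept the call in every alternative.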

How the results depend on the processing

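Calls of the plasmid and line comparisons moved least, with leave-one-out counts of 14 to 16 (HN4 labelled ACLY), 21 to 22 (HN6 ACLY), 23 (Cal27 ACLY), 22 to 23 (HN6 and Cal27 over HN4) and 22 to 24 (Cal27 over HN6), and of 27 to 30 for the plasmid response among lines. HN4 with IL-8 gave 10 members and 4 with library-size scaling, 4 with upper-quartile scaling, 6 with no filter, 4 with the replicate block, 18 in the line alone, 17 without replicate 3 of Cal27 IL-8 and 4 to 6 leaving out 1 library. HN6 with IL-8 gave 5, and 8 with DESeq2, 10 with all 36 libraries, 14 in the line alone, 13 without replicate 3 of Cal27 IL-8 and 4 to 5 leaving out 1 library. Cal27 with IL-8 gave 16, 4 in the line alone and 12 to 19 leaving out 1 library. The IL-8 response of HN6 against HN4 gave 12, and 5 with library-size scaling (2 higher, 3 lower), 6 with upper-quartile scaling (2 higher, 4 lower), 7 with the replicate block and 6 to 10 leaving out 1 library; among lines it gave 13 to 25. The cause of these moves was not tested. OGDH in Cal27 ACLY turned to -0.0055 with upper-quartile scaling, where the median of all genes moved by -0.14; with library-size and upper-quartile scaling that of Cal27 over HN6 moved by 0.12 and 0.11, that of Cal27 vector over HN6 vector by 0.12 in both, and that of the IL-8 response by 0.10 and 0.12. The replicate block changed no other count by over 1.5 times, and the numbers do not pair the libraries, with same-number correlations of -0.140 to 0.116. Depth limits ACSS1 in HN4, which is read by a few counts. At the level of single members 2213 alternatives kept direction and call, 222 lost the call and 1 reversed.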
